A study of Saccharomyces cerevisiae with 8 samples.

Results

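Transfer of prion-carrying yeast from a saturated preSPO culture to sporulation (SPO) medium was followed by poly(A) RNA sequencing in 4 libraries, 2 from preSPO culture after 48 h and 2 after 14 h in SPO medium. These 4 were chosen from the 8 libraries of the series by their titles, which name the state (the natural [SMAUG+] prion) and the time, and all deposited reading frames were read in each. The strain is BY4743, a diploid laboratory strain of Saccharomyces cerevisiae, and the labels give the genotype of these cells as wild-type. The other 4 libraries come from cells of the same strain that were selectively cured of the prion, in the same media, and entered the fit so that all groups shared a single estimate of the spread. Per the labels, each 10 ml culture was split, so that 5 ml gave the preSPO sample and the remaining 5 ml was moved to SPO medium. The prion state is named by the labels alone, and no measurement in the files shows how many cells carried it.

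As background, a diploid yeast cell that lacks both nitrogen and fermentable sugar leaves the mitotic cycle, enters meiosis and packs the resulting nuclei into spores. The programme runs as a cascade in which Ime1 starts the early genes of recombination and chromosome pairing, Ndt80 starts the middle genes of the meiotic divisions and the prospore membrane, and late genes build the spore wall. Sporulation media supply acetate, a carbon source that has to be respired and from which sugars are remade through the glyoxylate cycle and gluconeogenesis. Vts1, the protein of the [SMAUG+] prion, is an RNA-binding protein of the Smaug family that promotes mRNA decay.

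The prion libraries held 6983349 and 9756824 estimated counts in preSPO and 9716972 and 15047707 in SPO medium. TAR1, a reading frame within the ribosomal DNA, took 3.18% and 8.22% of these counts in preSPO and 10.6% and 13.5% in SPO medium. MET17, a sulfur gene whose deletion is a marker of this strain family, had 3207 and 3867 counts in preSPO and 1363 and 1 counts in SPO medium. The library labelled prion SPO replicate 2, with 1 count, thus went against the other 3, and results are given with and without it, as "without SPO replicate 2". VTS1 itself stood at 61.3 and 29.1 CPM in preSPO and 13.8 and 13.2 CPM in SPO medium, where CPM is the count scaled to a common library size after TMM scaling. Its log2 fold change was -1.74 (SE 0.33, edgeR adjusted p = 0.00255), -1.11 without preSPO replicate 1 and -1.72 without SPO replicate 2. Gene ranks agreed less well between the preSPO libraries (Spearman correlation 0.968 across 6346 genes, which are not independent replicates) than between the SPO libraries (0.989). Because bulk RNA was measured, fewer cells of a type and less RNA per cell cannot be told apart, and the share of cells that had entered meiosis is not known.

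Of 6346 genes that passed the filter on low counts, 1660 rose (26.2%) and 1720 fell (27.1%) in SPO medium at an adjusted p under 0.05, and 367 targets were not tested. All adjusted p-values come from edgeR quasi-likelihood tests and are adjusted by Benjamini-Hochberg over these 6346 genes. The 2 directions were about equal in number but not in size, since 395 genes rose and 219 fell more than 4-fold, and 103 rose and 11 fell more than 16-fold. These counts rest on TMM scaling, which sets the median gene at 0.00 on the log2 scale. Scaled by library size alone, 1210 rose and 1897 fell with the median at -0.17, and on log2(TPM + 1) 688 rose and 2496 fell with the median at -0.56. A gene is therefore described relative to the median gene, and directions near 0 depend on the scaling. In the 4 libraries 5117 genes (80.6%) had no overlap between media. Without SPO replicate 2, 1083 genes rose and 1109 fell, of which 1076 and 1107 were among the calls above.

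**Figure D1:**
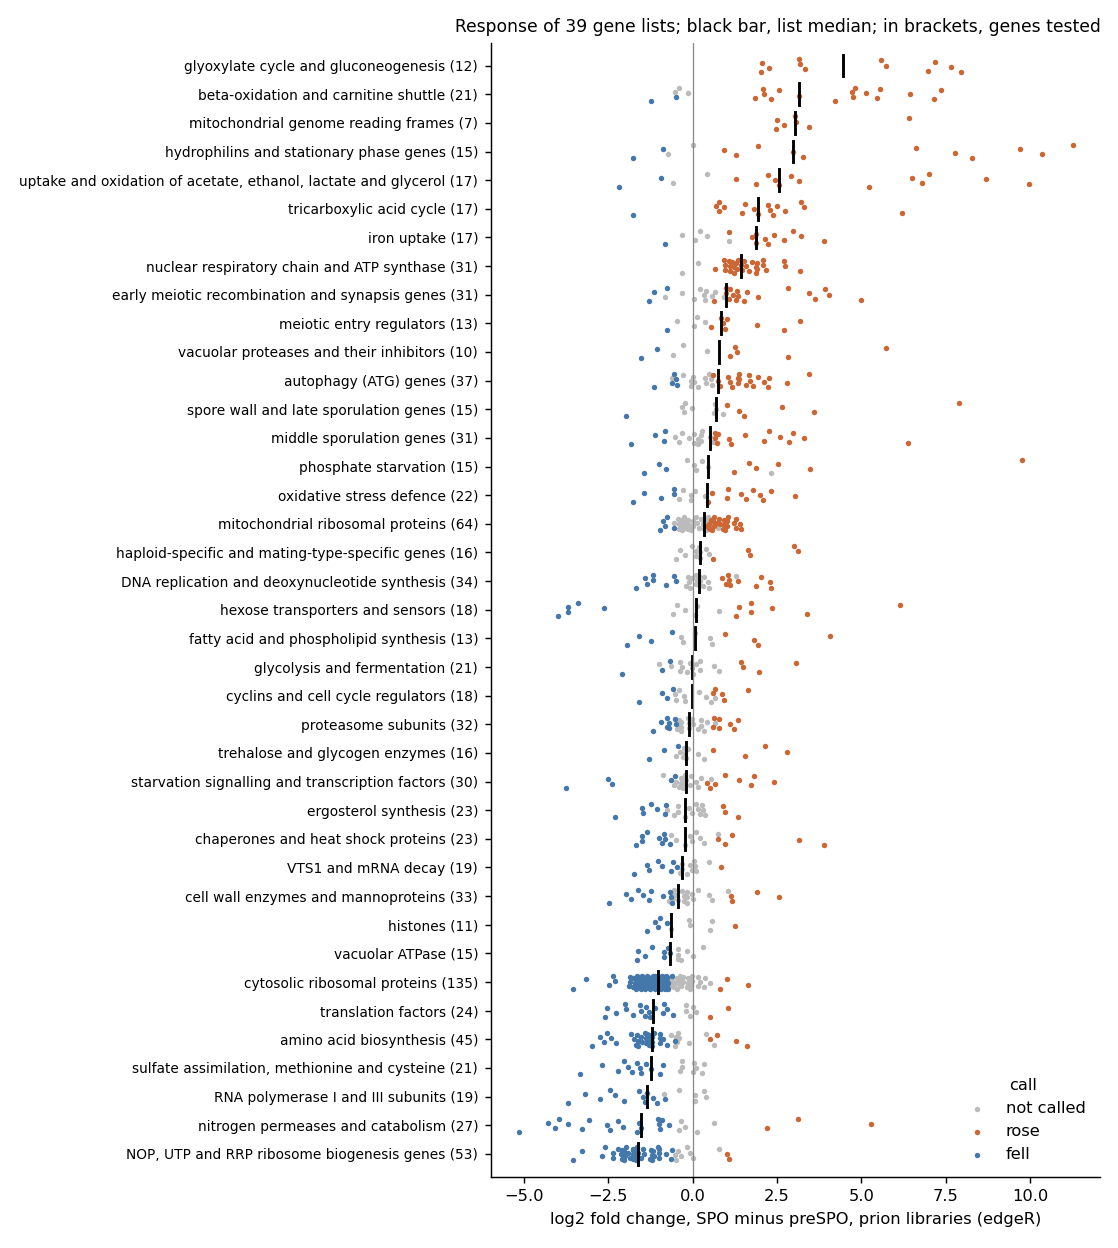
Log2 fold change from preSPO to SPO medium in prion libraries (x axis) for the tested members of 39 gene lists, 1 point a gene, coloured by call, with the list median as a black bar. Lists of the glyoxylate cycle, beta-oxidation and acetate use lie to the right, and those of ribosome biogenesis, nitrogen catabolism and ribosomal proteins to the left.

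Regulators of meiotic entry came first in the cascade, and IME1, its master transcription factor, was among the genes that rose in SPO medium. It stood at 17.1 and 20.4 CPM in preSPO and 127 and 211 CPM in SPO medium. Both SPO libraries lay above both preSPO libraries, as for 41.0% of all genes tested. Its log2 fold change was 3.17 (SE 0.27, edgeR adjusted p = 4.69e-05), a 9.00-fold difference (chromosome X, 604569 to 605651, build R64). RIM4, an RNA-binding protein that holds back the translation of middle meiotic mRNAs, stood at 7.96 and 7.72 TPM in preSPO and 36.99 and 30.7 TPM in SPO medium and rose by 2.72 (SE 0.20). UME6, the DNA-binding partner through which Ime1 acts on early genes, rose by 1.90 (SE 0.28). NDT80, the transcription factor of the middle genes, stood at 30.5 and 24.6 CPM in preSPO and 54.4 and 56.1 CPM in SPO medium, and IME2, the kinase that drives the cascade forward, at 12.4 and 7.21 CPM in preSPO and 19.4 and 18.4 CPM in SPO medium. Their log2 fold changes were 1.01 (SE 0.17, edgeR adjusted p = 0.00129) and 0.95 (SE 0.29, edgeR adjusted p = 0.0210). RME1, a repressor of IME1 in haploid cells, also rose (0.84), and SSN8, the cyclin C that restrains early meiotic genes, fell (-0.76). Of 13 regulators 8 rose and 1 fell (7 and 0 without preSPO replicate 1, 6 and 0 without preSPO replicate 2, 6 and 0 without SPO replicate 1, 5 and 0 without SPO replicate 2), against 26.2% and 27.1% of all genes, with a median of 0.84 (0.22 on log2 TPM). The call of IME2 was lost without preSPO replicate 2 (log2 0.60), SPO replicate 1 (log2 0.92) or SPO replicate 2 (log2 0.98). RME1 lost its call without SPO replicate 2 (log2 0.76). The test of SSN8 missed the threshold without preSPO replicate 1 (log2 -0.76), preSPO replicate 2 (log2 -0.78), SPO replicate 1 (log2 -0.85) or SPO replicate 2 (log2 -0.69).

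Early genes carry out double-strand breakage, strand exchange and pairing of chromosomes, and of 31 tested 18 rose and 3 fell (13 and 2 without SPO replicate 2), with a median of 1.00 (0.29 on log2 TPM). Among all genes tested, 26.2% rose and 27.1% fell. CSM4, which ties telomeres to the nuclear envelope for chromosome movement, had the smallest p of the early genes. It had 13 and 8 counts in preSPO and 330 and 585 counts in SPO medium, or 1.66 and 0.769 CPM in preSPO and 34.2 and 41.6 CPM in SPO medium, and its log2 fold change was 5.01 (SE 0.37, edgeR adjusted p = 2.59e-05). REC8, the meiotic cohesin subunit, stood at 1.92 and 3.46 CPM in preSPO and 33.7 and 33.6 CPM in SPO medium. DMC1, the recombinase of strand exchange between homologues, stood at 8.19 and 13.6 CPM in preSPO and 99.4 and 140.3 CPM in SPO medium, and REC114, a cofactor of double-strand breakage, at 9.34 and 14.5 CPM in preSPO and 80.8 and 89.2 CPM in SPO medium. In each of these 3 genes the media did not overlap, as in 80.6% of all genes tested. Their log2 fold changes were 3.61 (SE 0.32), 3.45 (SE 0.31) and 2.82 (SE 0.22). SPO11, the nuclease of the breaks themselves, stood at 6.01 and 9.71 CPM in preSPO and 21.1 and 24.3 CPM in SPO medium (log2 1.52, SE 0.29). SPO13, needed for the first division, and HOP1, of the chromosome axis, rose by 1.30 and 1.00. MER1, a splicing factor for meiotic introns, MSH5, of crossover formation, and ZIP2, of synapsis, fell, with log2 fold changes of -1.30 (SE 0.26), -1.15 (SE 0.18) and -0.75 (SE 0.25). SPO13 was no longer called without SPO replicate 1 (log2 1.21). The call of HOP1 was lost without SPO replicate 1 (log2 0.93). ZIP2 lost its call without preSPO replicate 1 (log2 -0.46), SPO replicate 1 (log2 -0.62) or SPO replicate 2 (log2 -0.90). Leaving out a library moved the log2 values of CSM4 (5.61 without preSPO replicate 1).

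The letters upstream of CSM4 are shown because early genes are known for the URS1 element, through which Ume6 and Ime1 act. They are the 250 bases before the start codon (chrXVI:171234-171483, build R64, + strand), read 5′ to 3′ from the RefSeq genome, with the URS1 core in capitals (GGCGGC, here on the opposite strand).
CSM4: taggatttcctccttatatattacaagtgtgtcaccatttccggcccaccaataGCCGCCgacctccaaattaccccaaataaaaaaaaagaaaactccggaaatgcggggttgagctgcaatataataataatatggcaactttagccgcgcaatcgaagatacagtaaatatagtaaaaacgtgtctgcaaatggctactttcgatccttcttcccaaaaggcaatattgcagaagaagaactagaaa
The core GGCGGC, searched on both strands of the 250 bases upstream, was found for 19 of 31 early genes (61.3%) and for 4.18% of 6006 promoters.

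Middle genes build the prospore membrane and drive the divisions, and calls went in both directions. Over all genes, 26.2% rose and 27.1% fell. Of 31 tested 14 rose and 4 fell (11 and 2 without preSPO replicate 1, 8 and 3 without SPO replicate 1, 10 and 2 without SPO replicate 2), with a median of 0.52 on the main scale and -0.05 on log2 TPM, where all genes lay at -0.56. CDA1, which deacetylates chitin of the spore wall, had 3 and 5 counts in preSPO and 262 and 655 counts in SPO medium, and its log2 fold change was 6.37 (SE 0.62, edgeR adjusted p = 8.67e-05). SPO19, a prospore membrane protein, stood at 1.92 and 1.15 CPM in preSPO and 13.1 and 16.7 CPM in SPO medium, AMA1, the meiotic activator of the anaphase-promoting complex, at 3.07 and 3.17 CPM in preSPO and 23.1 and 22.3 CPM in SPO medium and SPO73, of prospore membrane growth, at 5.37 and 7.497 CPM in preSPO and 41.7 and 36.2 CPM in SPO medium. All 3 rose, by 3.30 (SE 0.39), 2.86 (SE 0.28) and 2.59 (SE 0.32). SMK1, the kinase of spore wall assembly, rose by 1.54 and CDA2, the paralog of CDA1, by 2.27, the latter with 7 and 3 counts in preSPO and 33 and 30 counts in SPO medium. Other hallmark middle genes did not pass the test. SPS1, a kinase of prospore closure, stood at 7.04 and 2.98 CPM in preSPO and 8.91 and 6.26 CPM in SPO medium, SPS4 at 5.25 and 6.15 CPM in preSPO and 6.73 and 6.97 CPM in SPO medium, and SSP1, of the prospore membrane's leading edge, at 26.9 and 25.6 CPM in preSPO and 29.1 and 29.8 CPM in SPO medium. Their log2 values were 0.61 (SE 0.44), 0.26 (SE 0.33) and 0.17 (SE 0.19) (edgeR adjusted p = 0.263, 0.523 and 0.481). CLB1, a B-type cyclin, ADY3, of the leading edge, SPO21, of the meiotic spindle pole plaque, and SPO77 fell, with log2 values of -0.83, -0.84, -1.12 and -1.83. The test of CDA2 missed the threshold without preSPO replicate 2 (log2 1.61), SPO replicate 1 (log2 1.89) or SPO replicate 2 (log2 2.56). CLB1 was no longer called without preSPO replicate 1 (log2 -0.58) or SPO replicate 2 (log2 -0.78). The call of ADY3 was lost without preSPO replicate 1 (log2 -0.45), SPO replicate 1 (log2 -0.70) or SPO replicate 2 (log2 -1.002). Leaving out a library moved the log2 values of CDA2 (3.22 without preSPO replicate 1).

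The promoter of SPO19 holds the middle sporulation element, the site of Ndt80, and is shown for that reason (chrXVI:304137-304386, build R64, + strand; the element, GNCACAAA, is in capitals on the gene's strand).
SPO19: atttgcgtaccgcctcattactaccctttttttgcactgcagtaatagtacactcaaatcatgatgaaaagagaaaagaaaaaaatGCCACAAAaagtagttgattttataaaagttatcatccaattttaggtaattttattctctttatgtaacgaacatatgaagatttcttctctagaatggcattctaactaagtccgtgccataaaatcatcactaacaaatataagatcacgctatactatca
The element was found upstream of 16 of 32 middle genes (50%) and in 3.46% of all promoters.

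Late genes of the spore wall had a single gene of high level. SPS100, a spore wall protein, stood at 5.50 and 7.401 CPM in preSPO and 1796 and 1295 CPM in SPO medium, and its 238-fold difference was among the 12 largest of all named genes (log2 7.89, SE 0.49, edgeR adjusted p = 1.21e-05). CRR1, a putative glycosidase of the spore wall, stood at 4.61 and 5.29 CPM in preSPO and 51.7 and 67.4 CPM in SPO medium, and SGA1, the glucoamylase that degrades glycogen during sporulation, at 6.91 and 12.1 CPM in preSPO and 61.3 and 59.0 CPM in SPO medium. Both rose, by 3.58 (SE 0.24) and 2.64 (SE 0.28). DIT1 and DIT2, which make the dityrosine of the outermost wall layer, were not called. They stood at 19.2 and 20.4 CPM in preSPO and 15.8 and 16.0 CPM in SPO medium for DIT1, and at 4.61 and 3.17 CPM in preSPO and 3.31 and 3.34 CPM in SPO medium for DIT2 (edgeR adjusted p = 0.241 and 0.728). CTS2, a putative chitinase, fell by 1.98 on the log2 scale. Late genes rose and fell at 40% and 6.67%, against 26.2% and 27.1% of all genes. Of 15 tested 6 rose and 1 fell (6 and 1 without SPO replicate 2), and with LDS1, which was not tested, the 16 members of the list held 0.0214% and 0.0219% of TPM in preSPO and 0.125% and 0.0933% in SPO medium.

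**Figure D2:**
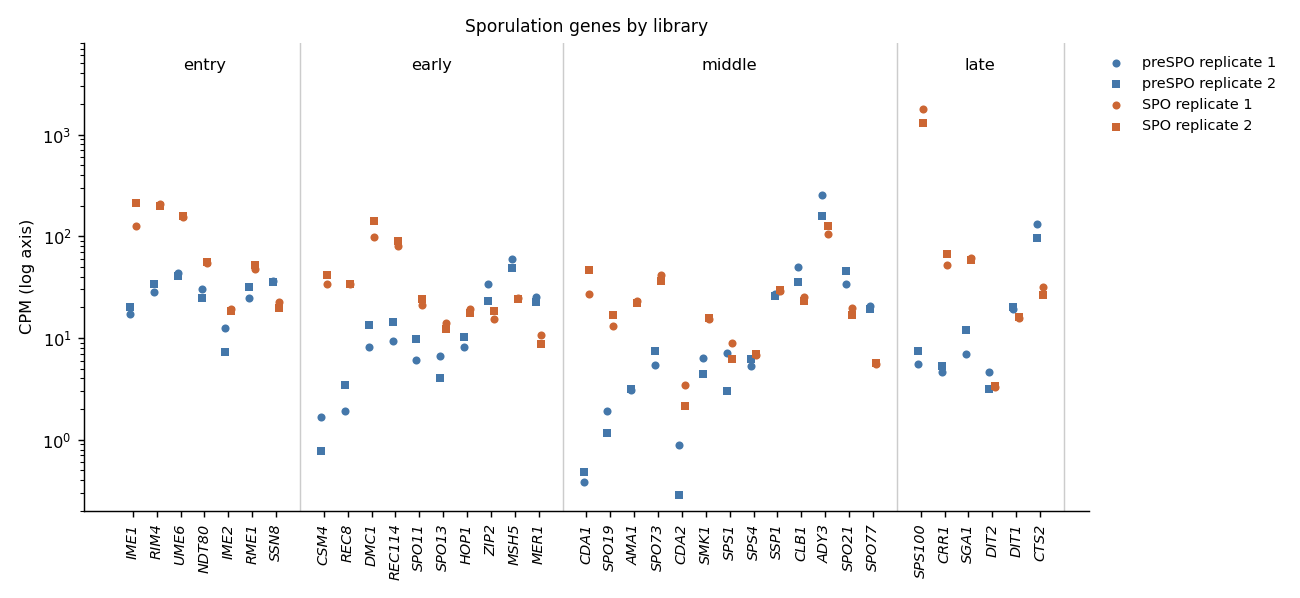
CPM on a log axis for sporulation genes in the order entry, early, middle and late, with 1 point a library (blue preSPO, orange SPO; circles replicate 1, squares replicate 2). IME1, CSM4, REC8, CDA1 and SPS100 lie higher in both SPO libraries, while DIT1, SPS4 and SSP1 were not called.

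All 4 stages together were a small part of the mRNA. TPM, which is per length and so allows genes to be compared, was summed over each list after TAR1 and the mitochondrial frames were left out. Entry regulators held 0.0328% and 0.0318% of TPM in preSPO and 0.0383% and 0.0400% in SPO medium, early genes 0.0206% and 0.0194% of TPM in preSPO and 0.0583% and 0.0585% in SPO medium and middle genes 0.0343% and 0.0256% of TPM in preSPO and 0.0363% and 0.0366% in SPO medium. Early genes thus had 2.92 times their preSPO share, and middle genes 1.22 times (1.04 times with all targets kept). SPO24, a short reading frame near a gene of the vacuolar ATPase, was already high before transfer, at 13689.5 and 14266 TPM in preSPO and 16379 and 15319.7 TPM in SPO medium. Its log2 fold change was 0.79 (SE 0.27, edgeR adjusted p = 0.0366). SPO24 lost its call without preSPO replicate 1 (log2 0.62), SPO replicate 1 (log2 0.85) or SPO replicate 2 (log2 0.73).

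The largest shifts in mRNA composition lay elsewhere. Hydrophilins, small and mostly unstructured proteins of desiccation and starvation, were listed with other genes of stationary phase. Together these genes held 0.886% and 1.29% of TPM in preSPO and 13.5% and 15.7% in SPO medium. Cytosolic ribosomal proteins held 28.4% and 21.0% of TPM in preSPO and 9.21% and 9.47% in SPO medium. SIP18, a hydrophilin, stood at 27.5 and 34.9 TPM in preSPO and 47887 and 54524 TPM in SPO medium, and after TAR1 and OLI1 it had the highest mean level in SPO medium. HSP12, a membrane-stabilising heat shock protein, stood at 196 and 494 TPM in preSPO and 23716 and 22843 TPM in SPO medium.

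**Figure D3:**
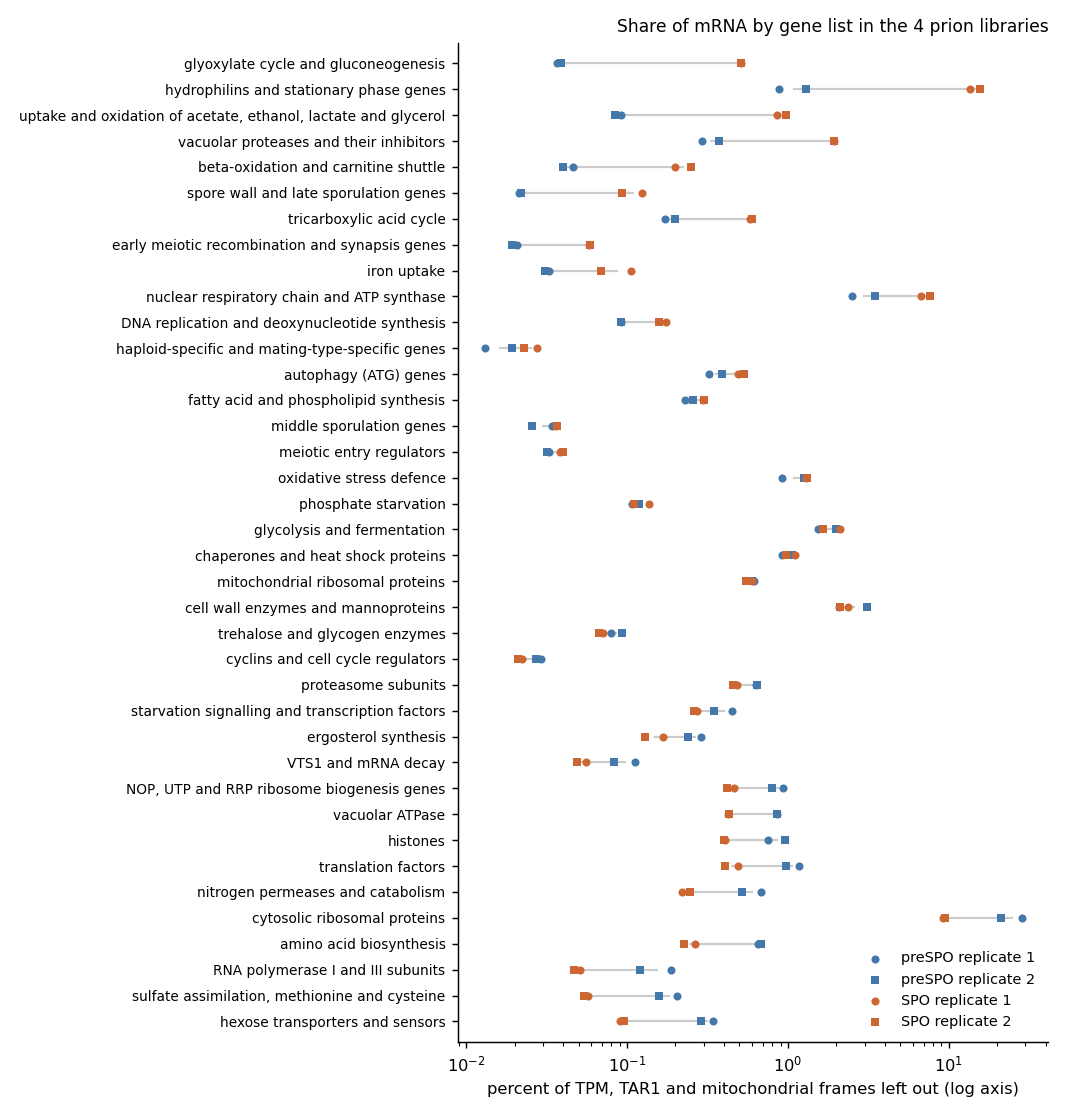
Percent of TPM (log axis) held by each gene list in the 4 prion libraries (blue preSPO, orange SPO; circles replicate 1, squares replicate 2; grey lines join the group means), ordered by the ratio of SPO to preSPO. Hydrophilins reach 13.5% and 15.7% in SPO medium, while ribosomal proteins go from 28.4% and 21.0% to 9.21% and 9.47%.

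SIP18 had the largest log2 fold change of the named genes, 11.27 (SE 0.91, edgeR adjusted p = 3.69e-05), with 4.09 and 6.44 CPM in preSPO and 11379 and 14907 CPM in SPO medium. GRE1, its paralog, stood at 3.97 and 9.42 CPM in preSPO and 5751 and 5523 CPM in SPO medium and rose by 9.70 (SE 0.69). RGI2, a regulator of respiratory growth, SPG1 and SPG4, genes of survival in stationary phase, rose by 10.36, 8.27 and 7.77. Unlike RGI2, its paralog RGI1 fell (607 and 1044 CPM in preSPO and 230.2 and 257 CPM in SPO medium; -1.76, SE 0.38), as did SPI1, a cell wall protein (-0.88). SNZ1, of vitamin B6 synthesis, stood at 95.5 and 86.8 CPM in preSPO and 677 and 1094 CPM in SPO medium and rose by 3.28 (SE 0.29). Of 15 genes in the list 11 rose and 2 fell (11 and 1 without preSPO replicate 2, 10 and 1 without SPO replicate 1, 10 and 1 without SPO replicate 2), with a median of 2.98 (2.35 on log2 TPM). Among all genes tested, 26.2% rose and 27.1% fell. Several genes of the list were chosen by others for their rise in starved cells, so the direction of the list is no independent evidence. The test of SPI1 missed the threshold without preSPO replicate 2 (log2 -0.48), SPO replicate 1 (log2 -0.83) or SPO replicate 2 (log2 -0.94). A left-out library shifted the log2 values of GRE1 (10.47 without preSPO replicate 2) and SPG1 (7.61 without preSPO replicate 1 and 9.76 without preSPO replicate 2).

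The promoter of HSP12 is shown because it holds the stress response element, the site of Msn2 and Msn4, in capitals on the gene's strand (chrVI:107006-107255, build R64, + strand; CCCCT).
HSP12: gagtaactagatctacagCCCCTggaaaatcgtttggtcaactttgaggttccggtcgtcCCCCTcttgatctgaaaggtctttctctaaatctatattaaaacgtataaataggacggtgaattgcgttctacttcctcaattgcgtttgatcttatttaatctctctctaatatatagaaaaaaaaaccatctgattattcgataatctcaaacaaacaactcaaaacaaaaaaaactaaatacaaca
HSP12 stood at 60.1 and 187 CPM in preSPO and 11589 and 12844 CPM in SPO medium (6.62, SE 0.71, edgeR adjusted p = 1.36e-04). Of genes that rose, 26.2% held CCCCT on either strand within 250 bases, against 13.2% of genes that fell and 18.8% of all promoters. The share within the list itself was 4 of 15. MSN4, which encodes one of the factors of this element, fell (592 and 532 CPM in preSPO and 38.4 and 45.3 CPM in SPO medium; log2 -3.75, SE 0.29, edgeR adjusted p = 3.04e-05). A left-out library shifted the log2 values of HSP12 (6.03 without preSPO replicate 1 and 7.66 without preSPO replicate 2).

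Carbon metabolism held some of the largest changes, beside 26.2% of all genes that rose and 27.1% that fell. All 12 tested genes of the glyoxylate cycle and gluconeogenesis rose, also without SPO replicate 2, with a median of 4.46 (3.78 on log2 TPM). PCK1, the phosphoenolpyruvate carboxykinase that opens gluconeogenesis, stood at 15.9 and 11.9 CPM in preSPO and 2747 and 2859.6 CPM in SPO medium, a 202-fold difference (log2 7.66, SE 0.33, edgeR adjusted p = 3.27e-06). FBP1, its last dedicated enzyme, stood at 5.12 and 3.84 CPM in preSPO and 1024 and 1193 CPM in SPO medium. ICL1 and MLS1, isocitrate lyase and malate synthase of the glyoxylate cycle, stood at 23.9 and 22.1 CPM in preSPO and 1299 and 1132 CPM in SPO medium for ICL1, and at 36.0 and 54.2 CPM in preSPO and 1986 and 2366 CPM in SPO medium for MLS1. They rose by 7.96 (SE 0.29), 5.72 (SE 0.28) and 5.59 (SE 0.31). The transcription factors over these genes rose as well, with log2 values of 3.18 (SE 0.24) for SIP4, 2.26 (SE 0.23) for ADR1 and 2.05 (SE 0.16) for CAT8. The list had 13.5 times its preSPO share of TPM.

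Genes that bring in and activate acetate and other respired substrates rose with them, and of 17 tested 13 rose and 2 fell (13 and 1 without SPO replicate 2), with a median of 2.57 and 1.91 on log2 TPM. ADY2, an acetate permease, stood at 4.09 and 4.52 CPM in preSPO and 3486 and 5143 CPM in SPO medium (log2 9.96, SE 0.45, edgeR adjusted p = 3.77e-06), and its relative ATO3, an ammonium exporter, at 17.7 and 15.9 CPM in preSPO and 1447 and 1575 CPM in SPO medium (log2 6.50, SE 0.25). ACS1, the acetyl-CoA synthetase of respiring cells, stood at 19.4 and 25.4 CPM in preSPO and 2659 and 3072 CPM in SPO medium (log2 7.00, SE 0.33). JEN1, the lactate permease, rose by 5.22 (SE 0.30), GUT1, the glycerol kinase, by 2.92 (SE 0.20), STL1, a glycerol symporter, by 3.14 (SE 0.33) and CYB2, the lactate dehydrogenase, by 1.29 (SE 0.19). ALD5 and ALD6, aldehyde dehydrogenases of the mitochondrion and the cytosol, fell, by 2.19 and 0.95 on the log2 scale. Across all genes tested, 26.2% rose and 27.1% fell. ALD6 was no longer called without SPO replicate 2 (log2 -0.79).

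Fatty acid oxidation genes of the peroxisome and the carnitine shuttle rose as well, with 21 tested, of which 16 rose and 2 fell (16 and 1 without preSPO replicate 1, 16 and 4 without preSPO replicate 2, 16 and 1 without SPO replicate 1, 16 and 1 without SPO replicate 2), with a median of 3.15 and 2.37 on log2 TPM. Over all genes, the shares were 26.2% that rose and 27.1% that fell. POX1, POT1 and FOX2, the oxidase, thiolase and multifunctional enzyme of the cycle, had log2 fold changes of 5.56 (SE 0.25), 6.44 (SE 0.32) and 3.15 (SE 0.21). CTA1, the peroxisomal catalase, stood at 17.1 and 18.2 CPM in preSPO and 412 and 584 CPM in SPO medium (log2 4.82, SE 0.26). Of the carnitine genes, YAT1, an acetyltransferase, stood at 3.84 and 6.34 CPM in preSPO and 701 and 991 CPM in SPO medium and CRC1, the mitochondrial carrier, at 4.48 and 9.32 CPM in preSPO and 819.6 and 1190.1 CPM in SPO medium (7.36, SE 0.38, edgeR adjusted p = 4.41e-06 and 7.16, SE 0.41, edgeR adjusted p = 7.70e-06). FAA1, the acyl-CoA synthetase for imported fatty acids, and ANT1, the peroxisomal ATP carrier, fell (-1.24 and -0.50). The call of ANT1 was lost without preSPO replicate 1 (log2 -0.41), SPO replicate 1 (log2 -0.45) or SPO replicate 2 (log2 -0.57). Log2 values moved with a library left out for CRC1 (7.81 without preSPO replicate 2).

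Respiration followed. Of 17 tested genes of the tricarboxylic acid cycle 16 rose and 1 fell (15 and 1 without SPO replicate 2), with a median of 1.94 and 1.29 on log2 TPM, and of 31 nuclear genes of the respiratory chain and ATP synthase 29 rose and 0 fell (25 and 0 without SPO replicate 2), with a median of 1.43 and 0.82 on log2 TPM. CIT3, the mitochondrial methylcitrate synthase, stood at 5.37 and 4.23 CPM in preSPO and 244 and 468 CPM in SPO medium, SDH1, the flavoprotein of succinate dehydrogenase, at 106 and 166 CPM in preSPO and 1198 and 1497 CPM in SPO medium and FUM1, the fumarase, at 83.2 and 102 CPM in preSPO and 871 and 859 CPM in SPO medium. They rose by 6.22 (SE 0.45), 3.31 (SE 0.29) and 3.22 (SE 0.21), and CIT1 and MDH1, of the same cycle, by 2.24 and 2.28. COX8 and COX4, subunits of cytochrome c oxidase, and ATP1, of the ATP synthase, rose by 2.71 (SE 0.33), 1.89 (SE 0.19) and 1.88 (SE 0.26). The respiratory list held 2.51% and 3.46% of TPM in preSPO and 6.71% and 7.64% in SPO medium. Log2 values moved with a library left out for COX8 (3.36 without preSPO replicate 2).

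Mitochondrial genome frames rose in all 7 tested cases (median 3.04), but poly(A) selection bears on these values, because yeast mitochondrial mRNAs carry no poly(A) tail. OLI1, the ring subunit of the ATP synthase, stood at 1070.4 and 970.4 TPM in preSPO and 46755 and 65488 TPM in SPO medium (log2 6.42, SE 0.70, edgeR adjusted p = 1.51e-04). COB, cytochrome b, rose by 3.05 (SE 0.24) and COX1, of cytochrome c oxidase, by 2.47 (SE 0.22). The share of counts at TAR1, within the ribosomal DNA, was also higher in both SPO libraries (10.6% and 13.5%, against 3.18% and 8.22%). Carry-over of RNA without tails was not tested. Of 64 tested nuclear genes of the mitochondrial ribosome 24 rose and 5 fell (12 and 3 without preSPO replicate 1, 13 and 5 without SPO replicate 1, 12 and 2 without SPO replicate 2), against 26.2% and 27.1% of all genes, with a median of 0.33 that turned to -0.26 on log2 TPM, still above the -0.56 of all genes. MRPL37, MRPL19 and RSM28 rose most clearly by p (1.01, 1.23 and 1.05), and MRP1 and MRPS28 were among the 5 that fell (-0.77 and -0.98).

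Hexose transporters moved in both directions, with 38.9% that rose and 27.8% that fell, against 26.2% and 27.1% of all genes. HXT5, known from slow-growing and stationary cells, was among the 7 genes of the list that rose, and 5 transporters of growing cells fell. HXT5 stood at 28.9 and 35.7 CPM in preSPO and 2161 and 2432 CPM in SPO medium (log2 6.15, SE 0.31, edgeR adjusted p = 4.41e-06). HXT3, of low affinity, stood at 5208 and 5185 CPM in preSPO and 360.4 and 446 CPM in SPO medium, and HXT1, also of low affinity, at 1628 and 1194 CPM in preSPO and 99.8 and 119.7 CPM in SPO medium. HXT2 and HXT7, of high affinity, stood at 484 and 478 CPM in preSPO and 33.8 and 26.8 CPM in SPO medium for HXT2, and at 349 and 374 CPM in preSPO and 55.0 and 62.4 CPM in SPO medium for HXT7. Log2 fold changes were -3.69 (SE 0.40) for HXT3, -3.68 (SE 0.37) for HXT1, -3.99 (SE 0.26) for HXT2, -3.40 (SE 0.32) for HXT4 and -2.62 (SE 0.21) for HXT7. Reads of near-identical transporter copies such as HXT6 and HXT7 may have been divided between them. Of 18 tested 7 rose and 5 fell (5 and 5 without SPO replicate 2), with a median of 0.09 that turned to -0.09 by library size and -0.37 on log2 TPM.

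Of 21 tested genes of glycolysis and fermentation 4 rose and 3 fell (2 and 4 without preSPO replicate 1, 4 and 1 without SPO replicate 2), against 26.2% and 27.1% of all genes, with a median of -0.01 (-0.62 on log2 TPM). TDH3, a glyceraldehyde-3-phosphate dehydrogenase, stood at 4157 and 6633 CPM in preSPO and 15105 and 13841 CPM in SPO medium (log2 1.42, SE 0.37, edgeR adjusted p = 0.0105), PGK1, the phosphoglycerate kinase, rose by 1.48 (SE 0.30), and PFK1, a phosphofructokinase subunit, fell (-0.67). CDC19, PDC1 and ADH1, of the fermentative end of the pathway, were not called, with log2 values of -0.65, -0.37 and 0.10 (edgeR adjusted p = 0.165, 0.284 and 0.804). TDH3 lost its call without preSPO replicate 1 (log2 1.12) or SPO replicate 1 (log2 1.36). The test of PFK1 missed the threshold without preSPO replicate 2 (log2 -0.56), SPO replicate 1 (log2 -0.81) or SPO replicate 2 (log2 -0.54).

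Some paralogs of the same enzymatic step moved apart. Of 34 pairs with both members tested, taken from the textbook division into a member of growing cells and another of respiring, starved or hypoxic cells, 7 had a first member that fell and a second that rose. In 7 more the first was not called and the second rose, and in 3 the first rose and the second fell. Among the last were COX5A with COX5B and CYC1 with CYC7, whose second members are hypoxic forms. In the other pairs, 5 had only a first member that rose and 2 only a first member that fell. Both rose in 4, both fell in 3, and neither was called in 3. HXK2 and CIT1 each enter more than once, and 26.2% of all genes rose and 27.1% fell. Within a pair, TPM gives the share of each.

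The pentose phosphate pathway, which makes NADPH and ribose, showed the first pattern in all 4 of its pairs. GND1, the main 6-phosphogluconate dehydrogenase, stood at 140.4 and 117 TPM in preSPO and 11.9 and 9.64 TPM in SPO medium, and GND2 at 2.81 and 6.07 TPM in preSPO and 114 and 83.3 TPM in SPO medium. The share of GND2 was 1.96% and 4.95% of the pair's TPM in preSPO and 90.5% and 89.6% in SPO medium. GND1 fell by 2.96 on the log2 scale and GND2 rose by 4.99 (SE 0.48), with edgeR adjusted p = 7.70e-06 and 8.38e-05. TKL1, the main transketolase, stood at 62.6 and 57.7 TPM in preSPO and 8.89 and 7.13 TPM in SPO medium, and TKL2 at 2.14 and 2.12 TPM in preSPO and 69.8 and 52.7 TPM in SPO medium, so that TKL2 held 3.31% and 3.54% of the pair's TPM in preSPO and 88.7% and 88.1% in SPO medium. The transaldolases followed, with NQM1 at 9.92% and 22.5% of the pair's TPM in preSPO and 79.2% and 81.2% in SPO medium, and the lactonases, with SOL4 at 32.0% and 56.0% of the pair's TPM in preSPO and 86.2% and 88.8% in SPO medium. Log2 fold changes were -2.30 (SE 0.20) and 5.44 (SE 0.48), -0.88 (SE 0.18) and 3.52 (SE 0.37), and -1.71 (SE 0.19) and 1.27 (SE 0.41), in that order of pairs. SOL4 was no longer called without preSPO replicate 1 (log2 0.70), SPO replicate 1 (log2 1.23) or SPO replicate 2 (log2 1.30). Log2 values moved with a library left out for GND2 (5.89 without preSPO replicate 2), NQM1 (4.20 without preSPO replicate 2) and SOL4 (2.21 without preSPO replicate 2).

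Further exchanges lay at the entry of sugars, at acetate and at the cell wall. HXK2, the hexokinase of glucose-grown cells, stood at 226 and 191 TPM in preSPO and 33.7 and 29.6 TPM in SPO medium, and GLK1, the glucokinase, at 78.8 and 96.5 TPM in preSPO and 261 and 199 TPM in SPO medium (-2.10, SE 0.17 and 1.98, SE 0.31). ADH2, which oxidises ethanol, took 1.98% and 1.29% of the pair's TPM in preSPO and 82.8% and 88.4% in SPO medium, with ADH1 not called and ADH2 at log2 8.70 (SE 0.44). ALD4 took 42.5% and 43.3% of the pair's TPM in preSPO and 85.1% and 89.1% in SPO medium, and ACS1 12.0% and 14.0% of the pair's TPM in preSPO and 96.5% and 96.8% in SPO medium. NADP-dependent isocitrate dehydrogenase changed its main form from mitochondrial IDP1 to cytosolic IDP2, at 6.65% and 5.78% of the pair's TPM in preSPO and 84.7% and 85.2% in SPO medium for IDP2. GDH3, a glutamate dehydrogenase of cells on ethanol, rose by 5.28 (SE 0.37) while GDH1 was not called (0.13). GSC2, a glucan synthase subunit of stressed and sporulating cells, rose by 1.90 (SE 0.26), and FKS1, its counterpart of growing cells, fell by 1.46. COX5A and CYC1, the aerobic forms of cytochrome oxidase subunit 5 and cytochrome c, rose, and their hypoxic forms COX5B and CYC7 fell. CYC7 held 80.9% and 86.5% of the pair's TPM in preSPO and 31.9% and 32.2% in SPO medium, with log2 values of 1.91 (SE 0.23) and -1.62 (SE 0.36). The call of IDP1 was lost without preSPO replicate 1 (log2 0.32), SPO replicate 1 (log2 0.50) or SPO replicate 2 (log2 0.59). COX5B lost its call without SPO replicate 1 (log2 -1.20) or SPO replicate 2 (log2 -1.26). Leaving out a library moved the log2 values of COX5B (-0.61 without preSPO replicate 2).

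Of 16 tested storage carbohydrate genes 4 rose and 3 fell (3 and 1 without SPO replicate 1, 3 and 1 without SPO replicate 2), shares near the 26.2% and 27.1% of all genes. ATH1, the acid trehalase, rose by 2.14 (SE 0.19), GLG2, a glycogenin, by 2.78 (SE 0.20) and GDB1, the debranching enzyme, by 1.54 (SE 0.30), while the glycogen synthases GSY1 and GSY2 fell (-1.28 and -0.86). GPH1, the phosphorylase, and NTH1, the neutral trehalase, were not called (-0.14 and -0.20). The test of GSY2 missed the threshold without SPO replicate 1 (log2 -0.86) or SPO replicate 2 (log2 -0.86).

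Chaperones, whose levels bear on prion propagation in yeast, gave calls in both directions. They rose and fell at 21.7% and 39.1%, against 26.2% and 27.1% of all genes. Of 23 tested 5 rose and 9 fell (3 and 10 without preSPO replicate 1, 2 and 6 without SPO replicate 1, 4 and 4 without SPO replicate 2), with a median of -0.23 (-0.83 on log2 TPM). HSP104, the disaggregase that most yeast prions need, stood at 2721 and 4083 CPM in preSPO and 2213 and 2151 CPM in SPO medium and was not called (log2 -0.64, SE 0.29, edgeR adjusted p = 0.0885). SSA1 and SIS1, its Hsp70 and Hsp40 partners, were not called either, at 0.22 (SE 0.23) and 0.10 (SE 0.20), while SSA2 fell (log2 -1.50, SE 0.25) and YDJ1, another Hsp40, fell (597 and 445 CPM in preSPO and 316 and 204 CPM in SPO medium). HSP26, a small heat shock protein, stood at 322 and 678 CPM in preSPO and 4488 and 4379 CPM in SPO medium, and SSA3, a stress-induced Hsp70, at 118 and 92.1 CPM in preSPO and 1843 and 1301 CPM in SPO medium. Both rose, by 3.15 (SE 0.41) and 3.90 (SE 0.38). HSP31, a methylglyoxalase of stationary cells, and CPR6, a cochaperone, fell (-1.50 and -1.37). Reads of the near-identical SSA1 and SSA2 may have been divided between them. YDJ1 was no longer called without preSPO replicate 1 (log2 -0.78) or SPO replicate 2 (log2 -0.73). A left-out library shifted the log2 values of HSP26 (3.78 without preSPO replicate 2).

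Genes of defence against oxidants gave calls in both directions, beside 26.2% and 27.1% of all genes that rose and fell. Of 22 tested 11 rose and 5 fell (9 and 3 without SPO replicate 1, 7 and 3 without SPO replicate 2), with a median of 0.41 and -0.16 on log2 TPM. CTT1, the cytosolic catalase, SOD2, the mitochondrial superoxide dismutase, PRX1, a mitochondrial peroxiredoxin, and GPX1, a phospholipid peroxidase, rose. SOD2 stood at 133 and 191 CPM in preSPO and 673 and 628 CPM in SPO medium, and the log2 values of the other 3 were 2.33 (SE 0.46), 2.08 (SE 0.24) and 3.04 (SE 0.27). TRR1, the thioredoxin reductase, GSH1, of glutathione synthesis, and GPX2 fell (-1.44, -1.76 and -0.95). CCP1, a mitochondrial peroxidase, and GSH2 fell as well (-0.55 for both). CCP1 lost its call without preSPO replicate 2 (log2 -0.40), SPO replicate 1 (log2 -0.52) or SPO replicate 2 (log2 -0.59). The call of GSH2 was lost without preSPO replicate 1 (log2 -0.39), SPO replicate 1 (log2 -0.58) or SPO replicate 2 (log2 -0.53). TSA1, the main cytosolic peroxiredoxin, was not called (-0.29, edgeR adjusted p = 0.334). A left-out library shifted the log2 values of CTT1 (3.31 without preSPO replicate 2).

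Ribosomal protein genes fell more often than the 27.1% of all genes. Of 135 tested genes for cytosolic ribosomal proteins 3 rose and 99 fell (5 and 78 without preSPO replicate 1, 2 and 61 without SPO replicate 1, 2 and 77 without SPO replicate 2), with a median of -1.02. RPL13A stood at 722 and 596 CPM in preSPO and 125 and 109 CPM in SPO medium and RPS22A at 1241 and 597 CPM in preSPO and 82.1 and 76.4 CPM in SPO medium. The media did not overlap in either gene, as in 80.6% of all genes tested, and the 2 genes fell by 2.49 and 3.54 on the log2 scale. RPS22B, the paralog of RPS22A, was 1 of 3 members that rose, at 59.9 and 62.9 CPM in preSPO and 199 and 185 CPM in SPO medium (1.65, SE 0.18, edgeR adjusted p = 1.60e-04). Per length, RPS22A stood at 2961 and 1151 TPM in preSPO and 122.9 and 99.2 TPM in SPO medium, and RPS22B at 143 and 121 TPM in preSPO and 298 and 241 TPM in SPO medium. RPS14B and RPL4B also rose (1.01 and 0.81). Reads of near-identical ribosomal paralogs are divided by the estimate of the counting tool, so each value is less certain than the list. The call of RPL4B was lost without preSPO replicate 2 (log2 0.65), SPO replicate 1 (log2 0.80) or SPO replicate 2 (log2 0.81). Leaving out a library moved the log2 values of RPS22A (-2.92 without preSPO replicate 1).

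The machinery that makes ribosomes fell as well, beside 27.1% of all genes that fell and 26.2% that rose. Of 53 NOP, UTP and RRP genes 2 rose and 43 fell (0 and 38 without preSPO replicate 1, 0 and 45 without preSPO replicate 2, 0 and 40 without SPO replicate 1, 0 and 36 without SPO replicate 2), with a median of -1.63, and of 19 subunit genes of RNA polymerases I and III 0 rose and 13 fell (1 and 12 without preSPO replicate 1, 0 and 11 without SPO replicate 2), with a median of -1.36. NOP56, of the box C/D particles that guide rRNA methylation, stood at 820.0 and 620.1 CPM in preSPO and 94.4 and 53.7 CPM in SPO medium, and NOP1, the methyltransferase, at 169.9 and 134 CPM in preSPO and 36.7 and 33.9 CPM in SPO medium. RPA49 and RPC40, polymerase subunits, stood at 175 and 110.2 CPM in preSPO and 13.1 and 9.25 CPM in SPO medium for RPA49, and at 549 and 405 CPM in preSPO and 58.2 and 46.3 CPM in SPO medium for RPC40. Log2 values were -3.28 (SE 0.35), -2.11 (SE 0.18), -3.69 (SE 0.29) and -3.19 (SE 0.25). NOP6 and RRP15 rose (1.06 and 1.03), with adjacent or overlapping frames not told apart. Of 24 translation factor genes 2 rose and 17 fell (1 and 15 without preSPO replicate 1, 1 and 16 without preSPO replicate 2, 1 and 16 without SPO replicate 1, 1 and 13 without SPO replicate 2), with a median of -1.19, among them YEF3, elongation factor 3, at 326 and 179.8 TPM in preSPO and 29.4 and 23.9 TPM in SPO medium (log2 -2.59, SE 0.27), SUI2, of initiation factor 2, (-2.27) and SUP35, the release factor of another yeast prion (319.8 and 229 CPM in preSPO and 95.2 and 88.7 CPM in SPO medium; -1.58, SE 0.23). CAM1, of elongation factor 1, rose (1.04), as did EFT2 (0.52), which turned to -0.10 on log2 TPM. NOP6 lost its call without preSPO replicate 1 (log2 0.96), preSPO replicate 2 (log2 1.17), SPO replicate 1 (log2 1.02) or SPO replicate 2 (log2 1.10). The test of RRP15 missed the threshold without preSPO replicate 1 (log2 1.06), preSPO replicate 2 (log2 0.99), SPO replicate 1 (log2 0.88) or SPO replicate 2 (log2 1.15). EFT2 was no longer called without preSPO replicate 1 (log2 0.54), preSPO replicate 2 (log2 0.50), SPO replicate 1 (log2 0.51) or SPO replicate 2 (log2 0.53).

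The promoter of NOP2, an rRNA methyltransferase gene that fell (275 and 276 CPM in preSPO and 83.5 and 77.3 CPM in SPO medium; log2 -1.78, SE 0.17, edgeR adjusted p = 8.57e-05), is shown for its PAC element, the site of the repressors Dot6 and Tod6 (chrXIV:510290-510539, build R64, + strand; GCGATGAG, in capitals, on the opposite strand).
NOP2: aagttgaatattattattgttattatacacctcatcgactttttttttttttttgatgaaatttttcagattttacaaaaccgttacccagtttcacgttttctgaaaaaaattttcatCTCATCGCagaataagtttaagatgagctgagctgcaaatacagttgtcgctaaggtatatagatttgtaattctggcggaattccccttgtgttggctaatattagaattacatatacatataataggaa
PAC was found upstream of 23 of 53 NOP, UTP and RRP genes (43.4%), 8.21% of all genes that fell, 1.92% of those that rose and 3.83% of all promoters. RRPE, the AAAAATTT element known beside it, was found upstream of 39 of those 53 genes, 21.6% of genes that fell, 7.95% of those that rose and 13.4% of all promoters.

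Nitrogen genes fell, among them those that scavenge poor nitrogen sources, beside 27.1% of all genes that fell and 26.2% that rose. Of 27 tested 3 rose and 19 fell (3 and 15 without SPO replicate 2), with a median of -1.52. DAL5, the allantoate permease, stood at 899 and 1076 CPM in preSPO and 24.9 and 30.2 CPM in SPO medium and fell by 5.16 on the log2 scale (edgeR adjusted p = 1.21e-05). DUR3, the urea transporter, stood at 723 and 1157 CPM in preSPO and 57.0 and 54.4 CPM in SPO medium, DAL4, the allantoin permease, at 331 and 196 CPM in preSPO and 14.2 and 19.6 CPM in SPO medium, and UGA4, the GABA permease, at 871 and 205 CPM in preSPO and 28.4 and 27.0 CPM in SPO medium. Log2 fold changes were -4.08 (SE 0.27), -3.95 (SE 0.29) and -4.28 (SE 0.60). MEP2, the ammonium permease that also senses ammonium, stood at 1437 and 1225 CPM in preSPO and 142 and 172 CPM in SPO medium (log2 -3.08, SE 0.30), and GAP1, the general amino acid permease, at 2504 and 2553 CPM in preSPO and 747 and 879 CPM in SPO medium (log2 -1.64, SE 0.23). The opposite was seen for GDH3, for PUT4, the proline permease, and for MEP1, another ammonium permease, with PUT4 at 124 and 90.8 CPM in preSPO and 886 and 1001 CPM in SPO medium (log2 3.13, SE 0.24) and MEP1 at 71.4 and 58.5 CPM in preSPO and 296 and 304 CPM in SPO medium (log2 2.21, SE 0.22). CHA1, which breaks down serine and threonine, was among the 12 smallest log2 values (log2 -4.04, SE 0.34). Leaving out a library moved the log2 values of UGA4 (-2.89 without preSPO replicate 1 and -4.98 without preSPO replicate 2).

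Biosynthesis of amino acids and of sulfur compounds fell as well, beside 27.1% of all genes that fell and 26.2% that rose. Of 45 tested amino acid genes 4 rose and 32 fell (2 and 27 without SPO replicate 2), with a median of -1.21, and of 21 genes of sulfate, methionine and cysteine 0 rose and 13 fell (0 and 13 without SPO replicate 2), with a median of -1.25. THR4, HIS4, TRP2 and HIS5, of threonine, histidine and tryptophan synthesis, had log2 values of -2.74 (SE 0.22), -2.63 (SE 0.23), -2.55 (SE 0.18) and -2.28 (SE 0.19). GCN4, the factor over this regulon, was not called (-0.57, SE 0.24, edgeR adjusted p = 0.0781). SAM2 and SAM1, which make S-adenosylmethionine, stood at 270.0 and 308 CPM in preSPO and 27.8 and 29.5 CPM in SPO medium for SAM2, and at 308 and 214 CPM in preSPO and 32.8 and 47.7 CPM in SPO medium for SAM1 (-3.33, SE 0.25 and -2.69, SE 0.35). LEU4 and LYS20, whose products open leucine and lysine synthesis from acetyl-CoA, rose (1.61, SE 0.23 and 1.30, SE 0.26).

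Genes of autophagy and of vacuolar proteases and their inhibitors rose in part, beside 26.2% of all genes that rose and 27.1% that fell. Of 37 tested ATG genes 20 rose and 5 fell (16 and 2 without preSPO replicate 1, 17 and 0 without SPO replicate 1, 16 and 1 without SPO replicate 2), with a median of 0.76 and 0.14 on log2 TPM. ATG34, a receptor of selective autophagy, stood at 28.8 and 44.8 CPM in preSPO and 386 and 417 CPM in SPO medium, and ATG39, the receptor for nuclear membrane, at 53.1 and 56.6 CPM in preSPO and 354 and 410.0 CPM in SPO medium. ATG8, the ubiquitin-like protein that coats the autophagosome, stood at 211 and 319 CPM in preSPO and 794 and 941 CPM in SPO medium. They rose by 3.44 (SE 0.25), 2.80 (SE 0.18) and 1.71 (SE 0.31), and ATG40 and ATG36, receptors for the endoplasmic reticulum and the peroxisome, by 2.22 and 2.11. ATG1, the kinase that starts the process, was not called (-0.62, SE 0.26, edgeR adjusted p = 0.0677). PAI3 and PBI2, inhibitors of vacuolar proteases A and B, had larger log2 fold changes than the proteases. PAI3 stood at 207 and 299 TPM in preSPO and 8984 and 8938 TPM in SPO medium, and PEP4, its target protease A, at 287 and 422 TPM in preSPO and 676 and 461 TPM in SPO medium (5.73, SE 0.36 and 1.25, SE 0.32). PBI2 rose by 2.82 (SE 0.30), with PRB1, protease B, not called (0.42). Of 10 tested genes of vacuolar proteases and their inhibitors 5 rose and 2 fell. PRC1 was also among those that rose (1.33), and DAP2 and CPS1 were those that fell (-1.52 and -1.05). Proteasome subunit genes rose and fell at 21.9% and 25%, near the shares of all genes. Of 32 tested proteasome subunit genes 7 rose and 8 fell (4 and 9 without preSPO replicate 1, 3 and 3 without SPO replicate 1, 2 and 3 without SPO replicate 2), and of 15 subunit genes of the vacuolar ATPase 0 rose and 8 fell (0 and 5 without SPO replicate 2). The call of PEP4 was lost without preSPO replicate 1 (log2 0.88) or SPO replicate 1 (log2 1.07).

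Metal and phosphate genes also changed, beside 26.2% of all genes that rose and 27.1% that fell. Of 17 tested genes of iron uptake 11 rose and 1 fell (8 and 0 without preSPO replicate 1, 11 and 0 without preSPO replicate 2, 10 and 0 without SPO replicate 2), with a median of 1.87 and 1.10 on log2 TPM. SIT1, a siderophore transporter, stood at 32.9 and 25.5 CPM in preSPO and 427 and 431 CPM in SPO medium, FTR1, the iron permease, at 26.7 and 27.4 CPM in preSPO and 126 and 116 CPM in SPO medium and TIS11, an mRNA decay factor of iron starvation, at 6.78 and 8.27 CPM in preSPO and 55.3 and 43.8 CPM in SPO medium (3.88, SE 0.28, 2.16, SE 0.23 and 2.71, SE 0.39). PHO89, a sodium-coupled phosphate transporter, had 12 and 9 counts in preSPO and 12131 and 11204 counts in SPO medium (log2 9.77, SE 0.57, edgeR adjusted p = 8.56e-06). PHO84, the proton-coupled transporter, stood at 29.3 and 24.9 CPM in preSPO and 219.9 and 93.9 CPM in SPO medium and SPL2, a regulator of low-affinity uptake, at 4.73 and 4.13 CPM in preSPO and 49.4 and 49.1 CPM in SPO medium (2.53, SE 0.48 and 3.48, SE 0.24). PHO5, the acid phosphatase that marks phosphate starvation, was not called (0.03, SE 0.26, edgeR adjusted p = 0.933), and of 15 phosphate genes 6 rose and 3 fell (6 and 1 without SPO replicate 2). Log2 values moved with a library left out for PHO84 (1.80 without SPO replicate 1).

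Of 18 cyclins and regulators 5 rose and 4 fell (3 and 2 without preSPO replicate 1, 1 and 1 without SPO replicate 1, 2 and 1 without SPO replicate 2), shares near the 26.2% and 27.1% of all genes. CLB5, the S-phase cyclin that meiotic replication also needs, stood at 11.5 and 17.2 CPM in preSPO and 42.9 and 47.0 CPM in SPO medium (log2 1.64, SE 0.22), and SWI5, a factor of mitotic exit, fell (log2 -1.59, SE 0.23). CLN2 and CLB2, cyclins of G1 and mitosis, were not called (-0.25 and -0.51). Of 34 replication genes 10 rose and 8 fell (8 and 5 without SPO replicate 1, 10 and 4 without SPO replicate 2), with a median of 0.18 that turned to -0.00 by library size and -0.39 on log2 TPM. The subunits of ribonucleotide reductase parted, with RNR1 at 43.4 and 55.9 CPM in preSPO and 25.8 and 18.6 CPM in SPO medium and RNR2 at 159 and 248 CPM in preSPO and 965 and 1049.8 CPM in SPO medium. RNR2 and RNR4, the small subunits, rose (2.30, SE 0.25 and 2.03, SE 0.23), and RNR1 fell (log2 -1.17, SE 0.35). RAD27, the flap nuclease of Okazaki fragments, rose (log2 1.89, SE 0.20). Of 11 histone genes 1 rose and 5 fell (3 and 4 without preSPO replicate 2, 1 and 3 without SPO replicate 1, 1 and 1 without SPO replicate 2), with HHT2, a histone H3 gene, at 691 and 886 CPM in preSPO and 271 and 339.8 CPM in SPO medium (log2 -1.37, SE 0.22). HTZ1, the variant H2A.Z, rose (log2 1.26, SE 0.25). RNR1 lost its call without preSPO replicate 2 (log2 -0.97) or SPO replicate 2 (log2 -0.96).

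Cell wall and lipid genes changed one by one, beside 26.2% of all genes that rose and 27.1% that fell. The shares of the fatty acid and phospholipid list, 30.8% each way, were near these. GAS1, a glucanosyltransferase, stood at 879 and 1095 CPM in preSPO and 249 and 248 CPM in SPO medium (log2 -1.99, SE 0.22), and TIP1, a mannoprotein, at 404 and 480.0 CPM in preSPO and 2667 and 2571 CPM in SPO medium (log2 2.57, SE 0.24). Of 33 cell wall genes 4 rose and 11 fell (4 and 7 without SPO replicate 1, 3 and 7 without SPO replicate 2), and of 23 ergosterol genes 3 rose and 7 fell (3 and 5 without SPO replicate 2), among them ERG26, a decarboxylase, at -2.32 (SE 0.19). INO1, of inositol synthesis, stood at 24.3 and 126 CPM in preSPO and 1248 and 1281 CPM in SPO medium, ACC1, which commits acetyl-CoA to fatty acids, at 281 and 311 CPM in preSPO and 1006 and 1099 CPM in SPO medium, and OLE1, the desaturase, at 615 and 709 CPM in preSPO and 2435 and 2636 CPM in SPO medium. They rose by 4.07 (SE 0.68), 1.83 (SE 0.20) and 1.94 (SE 0.28), while CHO2, of phosphatidylcholine synthesis, fell (log2 -1.94, SE 0.23), and of 13 genes of the fatty acid and phospholipid list 4 rose and 4 fell (3 and 3 without SPO replicate 2). A left-out library shifted the log2 values of INO1 (3.33 without preSPO replicate 1 and 5.70 without preSPO replicate 2).

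Of 30 tested signalling genes that sense glucose and starvation 8 rose and 5 fell (5 and 3 without preSPO replicate 1, 5 and 3 without SPO replicate 1, 5 and 3 without SPO replicate 2), against 26.2% and 27.1% of all genes. Besides MSN4, MIG1, the glucose repressor, stood at 159 and 168 CPM in preSPO and 32.0 and 29.8 CPM in SPO medium and PDE2, the high-affinity cAMP phosphodiesterase, at 361 and 185 CPM in preSPO and 48.3 and 47.0 CPM in SPO medium (-2.40, SE 0.26 and -2.52, SE 0.30). SIP2, a beta subunit of the Snf1 kinase, and IGO2, which protects mRNAs in quiescence, rose (2.42, SE 0.19 and 1.72, SE 0.19). HAP4, the activator of respiratory genes, was not called (-0.50, SE 0.21, edgeR adjusted p = 0.0706). Among genes of mRNA decay, the pathway in which Vts1 acts, 19 were tested and 1 rose and 8 fell (0 and 4 without preSPO replicate 1, 2 and 8 without preSPO replicate 2, 0 and 4 without SPO replicate 1, 0 and 3 without SPO replicate 2). CCR4, the deadenylase that Vts1 is known to recruit, rose by 0.85 (SE 0.29), POP2, its partner, was not called (0.09), and NOT5 and DCP1, of the Ccr4-Not and decapping complexes, fell (-1.37 and -1.04). The test of CCR4 missed the threshold without preSPO replicate 1 (log2 0.53), SPO replicate 1 (log2 0.69) or SPO replicate 2 (log2 1.00). DCP1 was no longer called without SPO replicate 2 (log2 -0.92). Log2 values moved with a library left out for VTS1 (-1.11 without preSPO replicate 1).

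Haploid-specific and mating-type genes, which diploid cells are known to keep off, were measured beside the sporulation genes. The summed level of the 18 genes was 121 and 161 TPM in preSPO and 216 and 166 TPM in SPO medium. MFA1, an a-factor gene, had 0 counts in all 4 libraries and MFA2, the other, at most 3. MF(ALPHA)1, an alpha-factor gene, stood at 9.69 and 33.1 TPM in preSPO and 12.0 and 17.0 TPM in SPO medium. MF(ALPHA)2, the other, stood at 23.5 and 12.3 TPM in preSPO and 11.7 and 14.0 TPM in SPO medium. SAG1, the alpha-agglutinin, stood at 9.08 and 7.997 TPM in preSPO and 7.29 and 7.35 TPM in SPO medium. GPA1 was also lower in both SPO libraries (11.2 and 9.84 TPM in preSPO, 7.28 and 7.32 TPM in SPO medium). So were FUS1, STE5, BAR1 and ASG7 by TPM, while STE3, FUS3, AGA2 and HO were higher in both. On log2 TPM the median of all genes lay at -0.56. STE3, the a-factor receptor, rose (71 and 77 counts in preSPO, 259 and 375 in SPO medium; 1.70, SE 0.28). STE2, the alpha-factor receptor, stood at 3.77 and 3.20 TPM in preSPO and 3.57 and 2.84 TPM in SPO medium, while FUS3, a mating kinase also kept off in diploids, rose (2.56 and 4.04 CPM in preSPO and 26.1 and 27.3 CPM in SPO medium; 3.00, SE 0.29) and AGA2, an a-agglutinin subunit, rose (0.896 and 4.81 CPM in preSPO and 29.7 and 22.2 CPM in SPO medium; 3.13, SE 0.55). Of 16 tested 5 rose and 0 fell (3 and 1 without preSPO replicate 1, 3 and 0 without SPO replicate 1, 3 and 0 without SPO replicate 2). The share that rose, 31.25%, was near the 26.2% of all genes, of which 27.1% fell. Another 11 members were not called, with a list median of 0.22 and -0.30 on log2 TPM. The part of the haploid and mating-type genes in the sporulation results was not tested. Log2 values moved with a library left out for AGA2 (2.43 without preSPO replicate 1 and 4.84 without preSPO replicate 2).

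Beyond the promoters shown, 14 motifs were searched in the 250 bases upstream of 6006 genes, on both strands and with overlaps allowed. Besides the stress response element, the URS1 core was found for 6.62% of genes that rose and 2.98% of those that fell, and the middle sporulation element for 4.37% and 2.26%. The site of the Hap complex (CCAAT) stood in 26 of 31 nuclear respiratory genes, but at 36.95% and 33.8% its share hardly separated all genes that rose from those that fell. The Gcn4 site (TGACTC) was found for 26 of 45 amino acid genes and the GATA site (GATAAG) for 12 of 27 nitrogen genes. Over all genes, these motifs stood in 6.31% and 12.6% of promoters. The carbon source response element of Cat8 and Sip4, in the strict form searched, was found in 4 of 6006 promoters and in none of the 12 glyoxylate and gluconeogenesis genes, which says only that these letters are not in this window. A match is a description of letters, not evidence of binding.

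**Figure D4:**
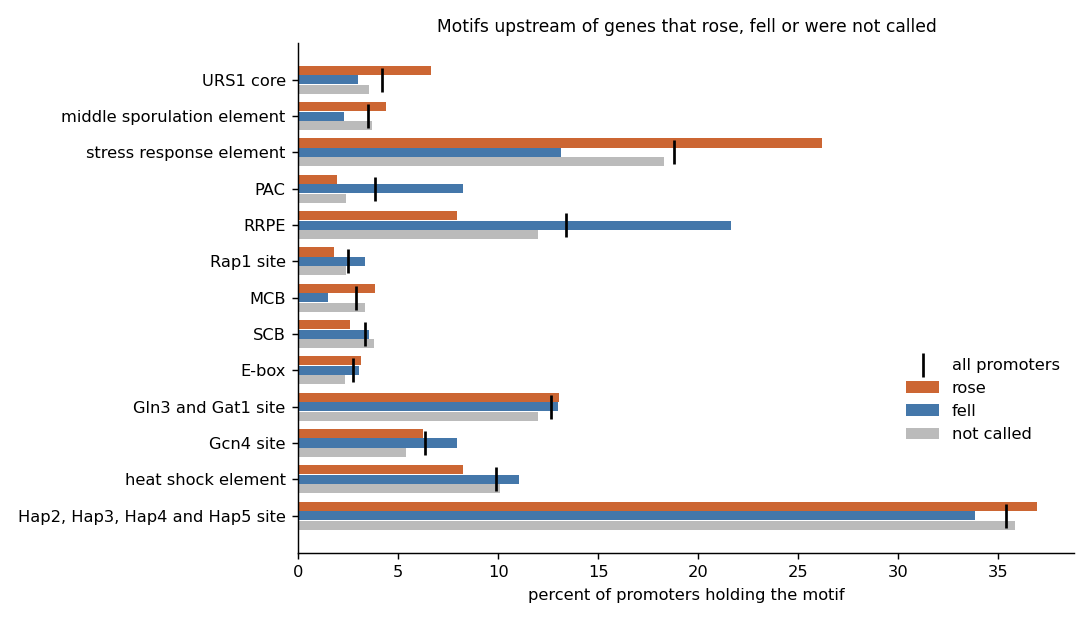
Percent of promoters (250 bases upstream) that hold each of 13 motifs among genes that rose (orange), fell (blue) or were not called (grey), with black marks for all promoters; the carbon source response element, held by few promoters, is not drawn. The stress response element stands at 26.2% of genes that rose and 13.2% of those that fell, and PAC at 1.92% and 8.21%.

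The response was then set beside that of cured cells, measured in the other 4 libraries. Both sets of calls use the same estimate of spread for each gene, so they are not independent. In cured libraries 1816 of 6346 genes rose and 1817 fell. Of genes that rose in prion libraries 1335 also rose in cured ones, 80.4% of the prion calls and 73.5% of the cured, and of those that fell 1398 also fell, 81.3% and 76.9%. In 12 genes the calls were opposite. SIP18 had log2 values of 11.27 in prion and 9.86 in cured libraries, IME1 3.17 and 2.84, ICL1 5.72 and 5.69, and DAL5 -5.16 and -5.08. The test of the difference called 1 gene of 6346 (0.0158%), the intron frame AI2 of the mitochondrial genome, while 791 had an unadjusted p under 0.05, DESeq2 called 131 and the fit with culture as a block called 0. RNR1 fell in prion libraries (-1.17) and stood at 1.21 in cured ones, HTA2, a histone H2A gene, at -1.11 and 0.63, and MET3, ATP sulfurylase, at -1.92 and -4.17. None of the 3 passed the test of the difference (edgeR adjusted p = 0.156, 0.156 and 0.172). MET17 bears on this comparison, because it had 0 and 1 counts in cured preSPO libraries and 447 and 13 in cured SPO libraries, against 1363 and 1 in prion SPO libraries. Cured SPO replicate 1 and prion SPO replicate 2 went against the preSPO libraries of their own state at this gene, and whether their labels were exchanged was not tested. Without both, 901 genes rose in both states, 82.4% of the prion calls and 66.6% of the cured, 830 fell in both, 77% and 65.7%, and the test of the difference called 2 genes. The call of HTA2 was lost without SPO replicate 2 (log2 -0.97). A left-out library shifted the log2 values of MET3 (-1.25 without preSPO replicate 1).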

How the data were processed

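Poly(A) RNA of 8 libraries of diploid yeast was measured, 4 of them from prion cells. Per the labels and the submitters' processing notes, reads were assigned with kallisto (no version given) to reading frames of build R64, and the deposited files hold expected counts, which need not be whole, and TPM. Whether counting used strand is not stated. The expected counts were rounded, genes with low counts were removed with filterByExpr, and 6346 genes were fitted with edgeR 4.0.16 (R 4.3.3) by the quasi-likelihood method with TMM scaling. The model had a mean for each of 4 groups over all 8 libraries, with 4 residual degrees of freedom, so cured libraries share in the estimate of spread. The SE is the size of the log2 fold change divided by the root of F. P-values measure the spread between these libraries, which may be technical. Shares of deposited TPM leave out TAR1 and mitochondrial frames. Promoters were read from the R64 RefSeq genome. Alternatives used limma 3.58.1 and DESeq2 1.42.0, and the fit was tested on simulated data.

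The members and lists were chosen with earlier results of these data known. Named genes were VTS1 and MET17, the 12 largest and 12 smallest log2 fold changes among called genes with at least 10 CPM in a group and no overlap, key genes of each list with up to 4 called members of smallest p, up to 5 members against their list, both members of each pair, and the 8 targets of highest TPM in each group. Some genes that the rule names are not reported here. Other genes in the text were chosen after their values were seen. Per the labels, cultures were split between media. Deviations of same-numbered libraries correlated at 0.0714 in prion and 0.316 in cured cells, over 2 pairs, and the block is given as an alternative.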

Additional observations from a re-analysis of the deposited data

Results flagged for a closer look

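AI2, a mitochondrial intron reading frame (chromosome MT, 13818 to 18830, build R64), was the gene whose response differed between prion and cured libraries by the test of the difference. It stood at 180 and 156 CPM in preSPO and 249 and 283 CPM in SPO medium in prion cells. Its log2 fold change was 0.66 (SE 0.18) in prion and 3.18 in cured cells, a difference of -2.52 (SE 0.26, edgeR adjusted p = 0.0341). Poly(A) selection bears on mitochondrial frames, and its part in this value was not tested.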

How the results depend on the processing

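The count of genes that rose stood at 688 on log2(TPM + 1), 668 on log2(TPM + 0.1), 531 against a 2-fold change, 1072 at an adjusted p under 0.01 and 1093 without both libraries whose MET17 goes against their letter. The count that fell stood at 494 against a 2-fold change and 1078 without those libraries. Leaving out each of the 8 libraries in turn gave 1083 to 1682 that rose and 1109 to 1759 that fell. Genes whose response differed between prion and cured numbered 2 with RLE, 4 by library size, 0 without TAR1 and mitochondrial frames (AI2 is not tested there), 131 with DESeq2, 41 and 29 on log2(TPM + 1) and log2(TPM + 0.1), 2 with a robust spread, 0 against a 2-fold change, 0 at an adjusted p under 0.01, 2 without both MET17 libraries, and 0 to 44 with each library left out. With the replicate block by culture 1883 rose, 1851 fell and 0 differed, and by number 1844 rose and 1817 fell. Of the 1660 genes that rose in the main fit, 162 turned negative on log2(TPM + 1) and 163 on log2(TPM + 0.1). On these scales 660 and 646 of the 1660 were still called. Of the 1720 that fell, 0 turned positive on either scale. Signs turned for 3 named genes, on log2(TPM + 1) and log2(TPM + 0.1) in turn. The EFT2 log2 fold change stood at -0.099 and -0.10, the SER1 log2 fold change at -0.092 on both, and the IDP1 log2 fold change at -0.055 and -0.056. VTS1 stayed called and negative under every alternative run. Apart from TPM scale, where centring moves all genes, the cause was not tested. Of single-gene values 7319 kept direction and call, 541 lost the call and 104 gained it. The number of libraries, 2 a group, limits the precision.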

Other observations

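Genes near chromosome ends rose more often. Within 25 kb of an end, 93 of 280 tested genes rose (33.2%) and 49 fell (17.5%), against 25.6% and 29.4% farther away. Within 15 kb the shares were 34.9% and 12.1%.

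Genes that rose had a median coding length of 943.5 bases and those that fell 1395 bases, with 1110 for genes not called. Of risen genes in divergent neighbour pairs, 36.999% had a risen neighbour, against 29.5% in tandem and 27.5% in convergent pairs. These are descriptions across genes, which are not independent replicates.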
